A study of Mus musculus with 3 samples.

Results

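In SRF ChIP-seq of whole mouse cornea, 720 of the 15587 regions that were called in both a mutant and a wildtype library (4.62%) had a peak height in the mutant that was equal to or above the height in the wildtype. These 720 regions are described here. The count rests on the heights as deposited, whose scaling between libraries is unknown: with both libraries set to the same median height it was 8755 (56.2%). The 720 were chosen by the peak heights themselves, which give a region's strongest signal in either library, so that their ratios are a description and not a finding. Over the whole series 31850 regions were listed, and 1450 of them (4.55%) met the height rule whether or not both libraries called them. Of the 31850, 15593 were called in wildtype only and 670 in mutant only. The other 14867 shared regions were lower in the mutant and are the background for what follows.

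The mutant mice carried Dstn-corn1, an allele of the gene for destrin, an actin-depolymerizing protein, and the comparison mice were wildtype. Both were of mixed background and about 8 weeks of age, with no treatment. Genotypes were taken from the sample titles, since the growth protocol names only mutant mice, also for the wildtype library. The number of corneas behind each library was not given in the sources used here. An input library without antibody completed the set and enters no comparison. With 1 library per genotype, no difference below has a replicate check, no p-value is given, and intervals on shares and medians cover counting error over regions only. Whole cornea holds epithelium, stroma and endothelium, and binding cannot be assigned to a layer. The 3 regions of Dstn itself were listed at 0 in the mutant library and at 35, 11 and 13 in wildtype, so that none was a shared region. Read totals were not used here, and the depth behind the heights is unknown.

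SRF, the serum response factor, binds as a dimer to a short A/T-rich element called the CArG box. It works with partner proteins of separate families. The MRTF cofactors are held back by monomeric actin and drive genes of the actin cytoskeleton, whereas the TCF cofactors answer to MAP kinase signalling and drive immediate early genes. Destrin severs and depolymerizes actin filaments, and corneas of corn1 mice are known for filamentous actin build-up, a thickened epithelium and vascularization.

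The DNA sequence of member promoters had no part in choosing the regions and is shown first. RefSeq gives 250 bases before each gene start for 32851 mouse starts (GRCm38.p6), and a stretch counted where at least 125 of its bases lay in a region. Of the 720 regions not lower in the mutant, 353 held such a stretch, against 2939 of the regions lower in the mutant. Where a region held several, the stretch nearest to its centre was taken. The CArG box was searched on both strands with no mismatch, as CC and GG around 6 bases that are each A or T. It was present in 14 of the 353 stretches (3.97%, exact binomial 95% interval 2.18 to 6.56). Of the stretches in regions lower in the mutant, 28 of 2939 held it (0.953%, 0.634 to 1.37). Over all promoters in the RefSeq table the share was 1.47% (1.34 to 1.60). Boxes in the 14 stretches lay 12 to 210 bases before the start, with a median of 89, and 12 of the 14 lay within 130 bases.

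Stretches of up to 100 bases around the box are shown for 8 regions, because the actin-linked members and the highest members with a box are among them. All are written in the direction of the gene and end at or before its start, and capitals mark the box. Coordinates are those of GRCm38.p6. Nr4a1 had no perfect box and is shown with its nearest match, which has 1 inner letter other than A or T.
Actg1, chr11:120348531-120348630, minus strand: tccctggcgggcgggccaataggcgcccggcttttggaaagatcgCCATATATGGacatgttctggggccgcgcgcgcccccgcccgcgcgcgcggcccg
Cnn2, chr10:79988499-79988598, plus strand: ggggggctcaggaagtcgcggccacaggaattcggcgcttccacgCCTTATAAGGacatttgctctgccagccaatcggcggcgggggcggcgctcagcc
Lima1, inner start, chr15:99820150-99820241, minus strand: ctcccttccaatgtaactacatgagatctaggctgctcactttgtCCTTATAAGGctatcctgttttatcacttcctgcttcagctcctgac
Bcl2l12, chr7:44997613-44997712, minus strand: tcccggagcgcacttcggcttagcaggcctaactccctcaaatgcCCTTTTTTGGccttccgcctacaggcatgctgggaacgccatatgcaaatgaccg
Elmsan1 (Mideas in RefSeq), inner start, chr12:84194069-84194168, minus strand: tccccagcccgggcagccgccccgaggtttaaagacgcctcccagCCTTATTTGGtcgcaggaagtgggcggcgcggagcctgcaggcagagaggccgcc
Pitpna, chr11:75587946-75588045, plus strand: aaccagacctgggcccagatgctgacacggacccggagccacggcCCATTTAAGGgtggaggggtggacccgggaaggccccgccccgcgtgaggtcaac
Arrdc4, chr7:68749394-68749488, minus strand: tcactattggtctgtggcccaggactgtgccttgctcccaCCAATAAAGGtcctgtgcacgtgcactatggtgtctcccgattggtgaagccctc
Nr4a1, chr15:101266700-101266799, plus strand: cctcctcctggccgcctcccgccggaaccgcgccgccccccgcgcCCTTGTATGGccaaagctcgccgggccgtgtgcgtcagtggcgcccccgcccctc

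The box of Actg1 began 90 bases before the start, that of Cnn2 56, that of Pitpna and that of Bcl2l12 88 each, that of Arrdc4 210 and the near match of Nr4a1 101. Those of Elmsan1 and Lima1 stood 108 and 47 bases before RefSeq starts inside the gene, not before the starts used by the authors, who listed the Lima1 region at 55322 bp from the gene start. Cnn2 and Lima1 carried the same 10 letters, CCTTATAAGG. These letters were also in the stretches of Vcl, the vinculin gene (50 in mutant and 60 in wildtype), Nr2f6 (30 and 35) and Filip1l (15 and 19). The Actg1 letters, CCATATATGG, recurred in Egr2, at 54 in mutant and 59 in wildtype. Those of Arrdc4 recurred in Ppif (41 in mutant and 114 in wildtype), Zfp619 (24 and 35) and Ubxn6 (17 and 18), and those of Elmsan1 in Alpk1 (15 and 21). All of these regions, matched in the direction of the gene, were lower in the mutant and fell outside the rule. On the opposite strand the Elmsan1 letters read CCAAATAAGG, found at the member Gm1720 (37 and 28) and at 4833412C05Rik (41 and 83). Those of Bcl2l12 read CCAAAAAAGG, found at Gm39558 (29 and 63). The other members with a perfect box were at Ranbp2 (28 in mutant and 23 in wildtype), Gm1720 (37 and 28), Blvrb (22 and 18), Ncoa7 (19 and 14), Bet1l (15 and 14), Cbr2 (15 and 12) and Gm51674, a RefSeq start inside Dixdc1 (39 and 37).

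The share of stretches with a CArG box was also taken by height. At a mean height of both libraries of 30 or more, 5 of 31 member stretches held a box (16.1%, 5.45 to 33.7), against 18 of 1502 in regions lower in the mutant (1.2%, 0.712 to 1.89). Under a mean height of 30 the shares were 9 of 322 (2.80%, 1.29 to 5.24) and 10 of 1437 (0.696%, 0.334 to 1.28), with intervals that nearly touched. Below a mean height of 15 they were 2 of 98 and 3 of 174, shares of 2.04% and 1.72% with overlapping intervals. With 1 inner mismatch allowed, the box was in 11.9% of member stretches (8.71 to 15.7) and in 7.42% of the others (6.50 to 8.42), beside 8.59% of all promoters.

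**Figure D1:**
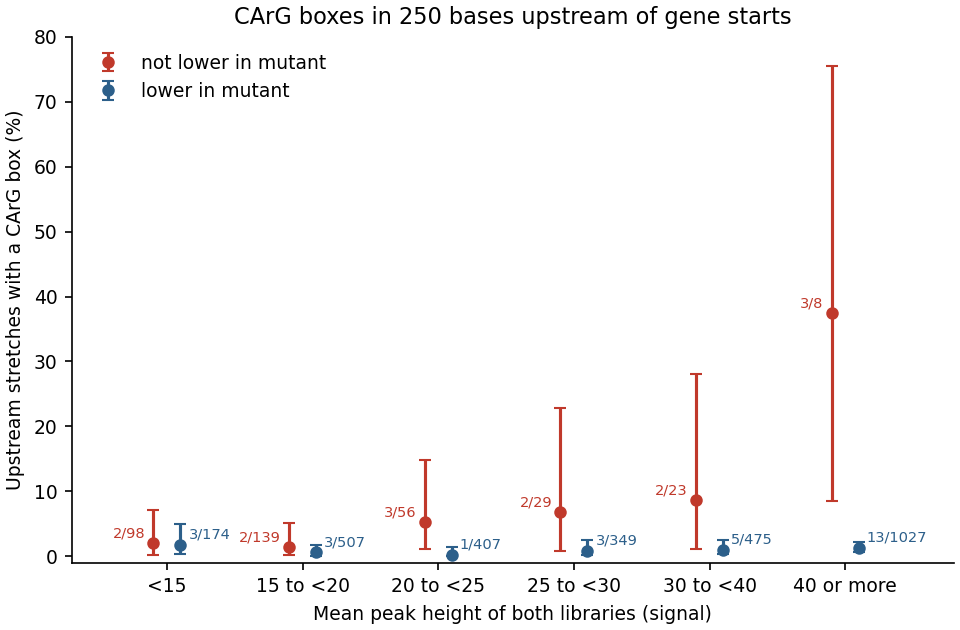
Share of upstream stretches with a CArG box (percent, vertical axis) by class of mean peak height (signal, horizontal axis), for shared regions not lower in mutant (red) and lower in mutant (blue). Bars are exact binomial 95% intervals and labels give counts. In the class of 40 or more, 3 of 8 red stretches held a box against 13 of 1027 blue ones, and below 15 the shares were close to each other.

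Other short motifs were added to the search after the CArG result was seen, each on both strands. GGGCGG, the core bound by Sp factors, stood in 74.5% of member stretches (69.6 to 79.0) and 60.9% of the others (59.1 to 62.6), beside 32.7% of all promoters. CCAAT, the core bound by NF-Y, stood in 44.8% (39.5 to 50.1) and 33.9% (32.1 to 35.6), beside 33.8% of all promoters. Of the 14 CArG boxes in members, 1 (Arrdc4) overlapped CCAAT. Among regions with a CpG island alone, GGGCGG stood in 77.1% of member stretches and 65.8% of the others, and CCAAT in 44.2% and 34.1%. CCGGAAGT, an ETS site, stood in 9.63% and 8.57%, CACGTG in 10.8% and 8.61%, and TGACGTCA in 1.70% and 2.89%, each with overlapping intervals. Over all promoters these stood in 2.88%, 6.02% and 1.55%. The median GC content of the stretches was 62.8% in members (61.6 to 64.0) and 61.6% in the others (61.2 to 62.0), and these intervals overlapped.

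The members were mostly low regions. Their mutant heights ran from 10 to 88 with a median of 19, and their wildtype heights from 9 to 88 with a median of 16. In regions lower in the mutant the median heights were 20 in mutant and 43 in wildtype, a difference that the rule itself shapes. Heights were equal in 179 of the 720 and higher in the mutant in 541. Of the latter, 163 were above by a height of 1, 144 by 5 or more and 33 by 10 or more. The median log2 ratio of mutant over wildtype height, after adding 1 to each, was 0.12 (0.10 to 0.14), against -0.96 over all shared regions. By a rule of size, 9 members were at least 2-fold higher in the mutant, which is 0.0577% of shared regions. By contrast 48.2% of shared regions were at least 2-fold lower there, on the heights as deposited. The average signal over the region, from the same libraries, was also not lower in the mutant in 427 of the 720, and was lower in the rest. Among the 14867 other shared regions, 397 had an average that was not lower in the mutant. Over all shared regions the share by average was 5.29%.

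**Figure D2:**
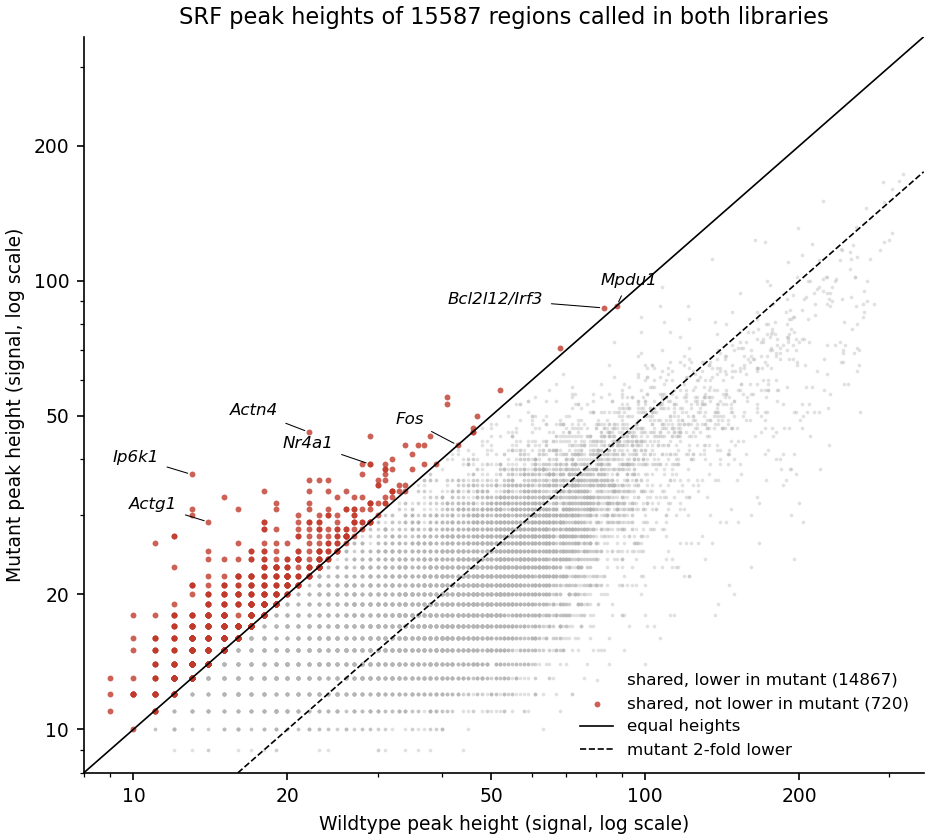
Peak height in mutant (vertical axis) against wildtype (horizontal axis), both in signal on log scales, for each region called in both libraries. Red points are the 720 regions at or above the solid line of equal heights, and grey points the 14867 below it, many of them near the dashed line of a 2-fold lower height. The named red regions include Mpdu1 at 88 in both and Actn4 at 46 against 22.

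How often a region belonged to the set went with its mean height. The mean is made of both heights that the rule compares, and no shared region was under 9 in either library. A low mean thus leaves little room for a large drop, and the fall in share below is shaped by the rule. Of shared regions with a mean height under 15, 32.5% were not lower in the mutant, and of those from 15 to under 20, 16.6%. From 20 to under 25 it was 5.90%, from 25 to under 30 2.74%, from 30 to under 40 1.07%, and at 40 or more 0.286%, or 13 of 4546 regions. The heights just inside and just outside the rule were close. The 5 highest promoter regions with equal heights were at Mpdu1 (88), Ptges3l and Rundc1 (46), Fos (43), Tmem107 (34) and Cabin1 (29). The 5 highest regions that missed the rule by a height of 1 were at Tmprss2 (47 in mutant and 48 in wildtype), Qpctl with Snrpd2 (42 and 43), Cep89 (41 and 42), Ap1m1 (40 and 41) and F5 (37 and 38). In all 245 shared regions missed by 1.

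Gene starts and CpG islands were frequent among the members. A start the authors assigned lay within 1 kb of the centre in 422 of 720 members (58.6%, 54.9 to 62.2) and in 24.7% of the regions lower in the mutant (24.0 to 25.4). A CpG island was listed for 61.4% (57.7 to 65.0) and 25.5% (24.8 to 26.2). Of members, 394 had an island and a start within 1 kb, 28 a start alone, 48 an island alone and 250 neither. At least 2 starts lay within 1 kb in 11.5% of members (9.29 to 14.1) and 4.12% of the others (3.81 to 4.46). No gene was assigned to 69 members (9.58%), against 21.1% of the others. Of the 298 members away from an assigned start, 22 held a RefSeq upstream stretch, as at Lima1 and Elmsan1.

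In either set, regions under a mean height of 20 were more often at promoters than those from 20 to under 40, so the comparison was also made within classes of height. From a mean height of 20 to under 25, 52.7% of members (43.8 to 61.5) were within 1 kb of a start, against 24.9% of the others (23.1 to 26.8). From 30 to under 40 it was 51.2% (35.5 to 66.7) against 14.7% (13.6 to 15.8). Under a mean height of 15 it was 70.3% (62.9 to 76.9) against 63.4% (58.2 to 68.3), with overlapping intervals. In classes of wildtype height the shares were closer at the low end, with 65.3% against 65.8% below 15 and 59.9% against 56.2% from 15 to under 20. From 30 to under 40 in wildtype they were 48.4% (30.2 to 66.9) against 19.3% (17.9 to 20.8). The shares at a CpG island were likewise close at low wildtype heights. They were 69.0% against 70.8% below 15 and 61.0% against 57.0% from 15 to under 20, classes with 239 and 272 members. From 30 to under 40 they were 54.8% (36.0 to 72.7) against 18.8% (17.5 to 20.3).

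**Figure D3:**
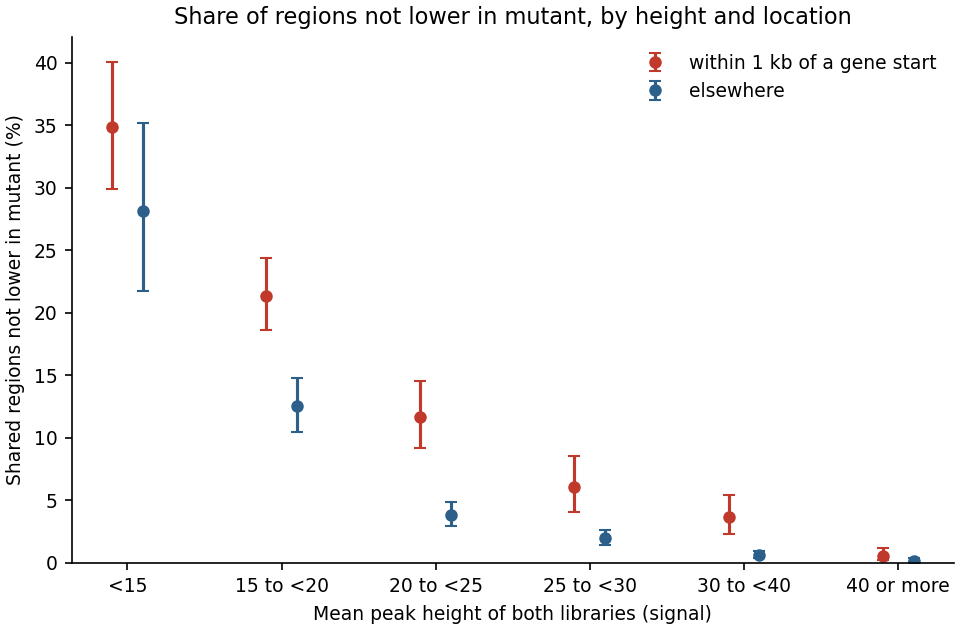
Share of shared regions that were not lower in mutant (percent, vertical axis) by class of mean peak height (signal, horizontal axis), within 1 kb of a gene start (red) and elsewhere (blue), with exact binomial 95% intervals. The share falls from 34.8% to 0.558% at starts and from 28.1% to 0.182% elsewhere, a fall that the rule shapes, since the mean is made of the heights it compares.

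Immediate early genes are switched on within minutes of a stimulus, and many encode transcription factors. Of 44 genes listed as immediate early or TCF-linked, 39 had a shared region and 11 of these had one not lower in the mutant (28.2%, exact binomial 95% interval 15 to 44.9). Over all 12023 genes with a shared region the share was 8.88%. By regions it was 12 of 66, or 18.2% (9.76 to 29.6), against 4.62% of all shared regions. The list's 66 regions had a median log2 ratio of -0.48, against -0.96 over all shared regions. A share of 18.2% by regions was not particular to this list, and other gene groups below reached a similar one. The lists were chosen with earlier results of these data known, so their counts are descriptive.

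Fos and Nr4a1 show how the heights differed along a gene. Fos encodes a subunit of the AP-1 factor. Its promoter region on chromosome 12 (85472955 to 85474253, mm10, centre listed at -297 bp from the start) had a height of 43 in both libraries. A region at 12140 bp past the start had 97 in mutant and 108 in wildtype. A region at -1601 bp had 15 and 34 and was not called in mutant. The 250 bases before the Fos start held no perfect CArG box. The well-known serum response element of Fos lies further upstream than that stretch.

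Nr4a1, an orphan nuclear receptor gene, had 39 in mutant against 29 in wildtype at its promoter on chromosome 15 (101266368 to 101267144, listed at -90 bp), and the log2 ratio was 0.42. Its other region, 17040 bp past the start and shared with 2 further genes, had 38 and 121, a log2 ratio of -1.65. The regions thus had nearly equal heights in mutant, whereas in wildtype the distant region was far higher. Nr4a3 had 23 and 20 at -7935 bp and Nr4a2 11 and 11 inside the gene.

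Fosb, another AP-1 subunit gene, had 6 shared regions and 1 of them was not lower in the mutant, at -10084 bp, with 50 against 47. The region over its start had 55 and 61, and the 4 others, 6106 to 14060 bp past the start, had 18 to 35 in mutant and 26 to 71 in wildtype. Fosl1, also of the Fos family, had 26 and 19 at its start (-46 bp) and 21 and 35 at 12910 bp. Per1, a circadian clock gene that is also induced by serum, had 32 and 22 at 1099 bp inside the gene. Its shared upstream regions were lower in the mutant, at 23 and 66 (-4033 bp) and 28 and 55 (-6255 bp).

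Klf10, a zinc finger factor gene, had 2 members side by side, 21 and 15 at 1131 bp and 15 and 13 at -229 bp, and another region at 3244 bp with 15 and 50 that was called in wildtype only. Zfp36l2, which encodes a protein that promotes mRNA decay, had 27 and 21 at its promoter and 44 and 66 at -3338 bp. Dusp1, a MAP kinase phosphatase gene, had 17 and 13 at 5396 bp, past its end, but 19 and 74 at 280 bp. Of the 11 genes, 5 had their member within 1 kb of the start, namely Fos, Nr4a1, Zfp36l2, Fosl1 and Klf10, out of 22 list genes with a shared region there. That is 22.7% (7.82 to 45.4), beside 10.6% over all 4757 genes with a shared region within 1 kb. With only regions of a height of at least 20 in the higher library, 8 of 35 genes had a member (22.9%), beside 4.51% over all genes. For a member the higher height is the mutant one unless both are equal, so this filter is not independent of the rule. Fosl1 (26 and 19) and Klf10 (21 and 15) passed it by mutant height alone. With regions assigned to 1 gene alone the count was 6 of 19 (31.6%), beside 6.29%. By average signal in place of height it was 12 of 39 (30.8%), beside 9.90%.

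**Figure D4:**
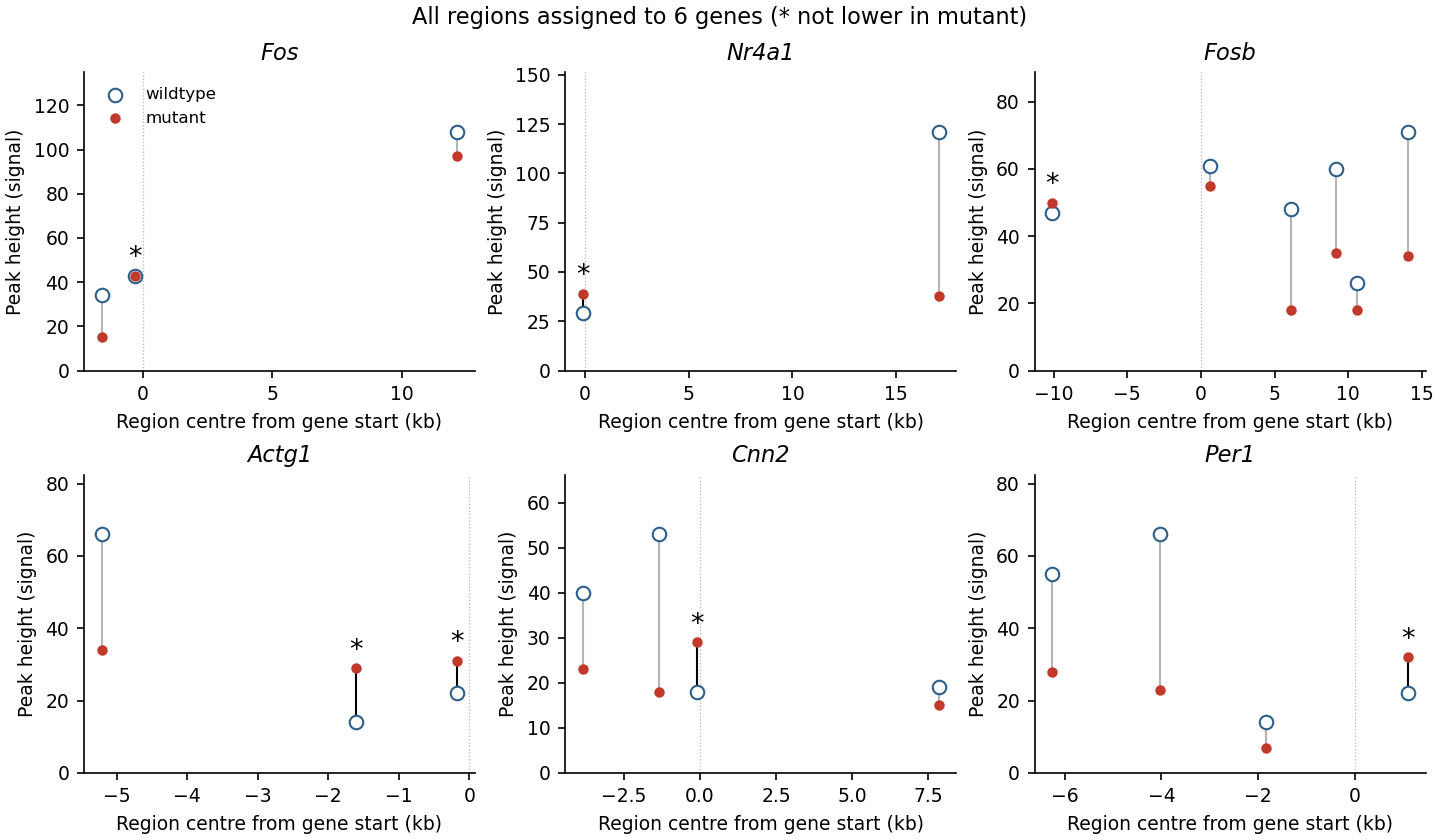
Peak height (signal, vertical axis) of every region assigned to Fos, Nr4a1, Fosb, Actg1, Cnn2 and Per1 by its distance from the gene start (kb, horizontal axis), in wildtype (open blue) and mutant (red). Asterisks mark shared regions not lower in mutant. Every other region of these genes has its red point below its blue one, as at 38 against 121 for Nr4a1, which the rule fixes for shared regions.

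Genes of the actin cytoskeleton with links to MRTF were the next group, 50 genes of which 44 had a shared region. A region not lower in the mutant was found for 11 of them (25%, 13.2 to 40.3), beside 8.88% over all genes, and for 12 of 72 regions (16.7%, 8.92 to 27.3). The median log2 ratio of the 72 regions was -0.75. At the start itself the count was 3 of 15 genes (20%, 4.33 to 48.1), beside 10.6% over all genes. These 3 were Actg1, Cnn2 and Itgb1.

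Actg1 encodes cytoplasmic gamma-actin. On chromosome 11 its promoter region (120347982 to 120349325, listed at -169 bp) had 31 in mutant against 22 in wildtype, and the log2 ratio was 0.48. The neighbouring region (120349432 to 120350736, -1600 bp) had 29 and 14, a log2 ratio of 1.00. Another region at -5214 bp had 34 and 66. The mutant heights of the 3 regions thus lay between 29 and 34, and the wildtype heights between 14 and 66. The CArG box printed above lies in the promoter region.

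Cnn2, the gene of the actin-binding protein calponin 2, had 29 in mutant against 18 in wildtype at its start on chromosome 10 (79987815 to 79989174, -106 bp), and the log2 ratio was 0.66. Its 3 other shared regions were lower in the mutant, with 18 and 53 at -1358 bp, 23 and 40 at -3841 bp and 15 and 19 at 7833 bp. Cnn3, the calponin 3 gene, had 30 and 25 at 36429 bp downstream, within Slc44a3.

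Actn4 encodes alpha-actinin 4, which crosslinks actin filaments. Its region 30653 bp inside the gene on chromosome 7 (28931157 to 28932097) had 46 in mutant against 22 in wildtype, and the log2 ratio was 1.03. A region 22300 bp inside the gene had 23 and 36. The region at its start had 16 and 13 and was called in wildtype only, so it was not a shared region. Lima1, the gene of the actin-bundling protein EPLIN, had 22 and 16 at the inner RefSeq start with the CArG box shown above, and 18 and 33 at 97180 bp. Itgb1, the gene of integrin beta 1, had 14 in both libraries at its start.

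The remaining genes of this group had members far from their starts and with small differences. Fhl3 had 21 and 20, Ankrd1 21 and 18, Tpm4 20 and 18, Lpp 18 and 18, and Myh9, the gene of a nonmuscle myosin, 15 and 14. At Fhl3 and Myh9 higher regions of the same gene were lower in the mutant, at 54 against 140 and at 47 against 83. Genes of actin filament turnover had a member in 4 of 29 genes with a shared region (13.8%, 3.89 to 31.7). Limk1, a kinase that inactivates destrin and cofilin, had 23 in both at its start (-249 bp). Capza2, a capping protein subunit gene, had 28 in both at 38495 bp, Coro2a 15 and 14, and Scin 14 and 14. Of the 7 genes for SRF and its cofactors, 4 had a shared region and 0 of these had a member. The nearest was Srf, with 48 and 51 inside the gene.

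Across 620 of the 1068 genes with a member, another shared region of the same gene was lower in the mutant. In 448 genes every shared region was a member, and 437 of these had 1 shared region alone. Over all 12023 genes with a shared region, 7176 had exactly 1. Any shared region outside the set is lower in the mutant by the rule. These counts thus follow mostly from how many shared regions a gene had, and are no finding about the genes.

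Other gene groups were counted in the same way over genes with a shared region, against 8.88%. Splicing factors and hnRNPs had a member in 8 of 29 (27.6%, 12.7 to 47.2), among them Srsf3 (25 and 25), Srsf9 (24 and 23), Hnrnpul1 (22 and 22), Sf1 (21 and 15) and Sf3a1 (19 and 16). The members of Srsf3, Srsf9 and Sf3a1 were listed downstream, at 12443, 14108 and 26357 bp. Those of Srsf9 and Sf3a1 were also assigned to other genes. At the start of Sf3a1 the heights were 20 and 27. Within 1 kb of the start the count of splicing genes was 5 of 23 (7.46 to 43.7, beside 10.6%), and with regions of 1 gene 3 of 15 (4.33 to 48.1, beside 6.29%), and both intervals held the background. At a height of at least 20 in the higher library, a filter not independent of the rule, it was 4 of 24 (16.7%, 4.74 to 37.4, beside 4.51%). Translation initiation and elongation genes had one in 5 of 23 (21.7%, 7.46 to 43.7), with Eif4a3 at 32 and 29 and Eif1 at 30 and 27. Heat shock and chaperone genes had one in 4 of 22 (18.2%, 5.19 to 40.3), each at a promoter. These were Hsph1 (38 and 32), Dnaja1 (34 and 32), Hsp90aa1 (15 and 14) and Bag3 (14 and 14). By average signal none of the 4 met the rule and the list had 0 of 22, as at Hsph1 with 12.7 in mutant and 13.5 in wildtype. By regions, 7 of 38 of translation genes were members (18.4%, 7.74 to 34.3) and 8 of 48 of splicing factors (16.7%, 7.48 to 30.2). Leukocyte genes, listed below, had 2 of 10 (20%, 2.52 to 55.6), and both of these regions are also among the 7 of translation genes. The immediate early and actin lists, at 18.2% and 16.7%, thus did not stand apart by the share of regions. Median log2 ratios, made of the heights the rule uses, were -0.48 and -0.75 in those lists. In splicing, translation and leukocyte regions they were -0.70, -0.91 and -0.92. Every remaining list had a lower share by regions, at most 12.5% for inflammation genes (2 of 16).

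Zfp zinc finger genes had a member in 15 of 124 (12.1%, 6.93 to 19.2), with Zfp523 at 29 and 27. Cytoplasmic ribosomal protein genes had one in 7 of 74 (9.46%, 3.89 to 18.5), with Rpl10 at 30 and 27 and Rpl7 at 24 and 14, and mitochondrial ones in 6 of 64 (9.38%, 3.52 to 19.3), with Mrps9 at 25 and 25. Both shares were near the background. Proteasome genes had 2 of 28, histone cluster genes 3 of 29 in 1 region of the Hist2 cluster (19 and 17), and small nucleolar and spliceosomal RNA genes 5 of 76, with Snord118 near the Tmem107 promoter at 34 in both.

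Markers of the tissue and of other cells gave small counts, and the interval of each list held the background share. Corneal epithelium and keratin genes had 1 of 19, Krt14, a basal cell keratin gene, with 38 and 35 at 7214 bp downstream, a region also assigned to Krt9. Stroma and endothelium genes had 0 of 9, vessel genes 0 of 7 and proliferation genes 0 of 12, with upper limits of 33.6%, 41.0% and 26.5% that hold the background share. Inflammation genes had 2 of 11, Socs3, a cytokine signalling inhibitor gene, with 36 and 23 at 5635 bp, and Irf1, with 18 and 17 at its start. At the start of Socs3 (-622 bp) the heights were 33 and 57. Leukocyte genes had 1 of 6, Cd68, whose member regions (88 and 88, and 14 and 13) lie nearer to the starts of Mpdu1 and Eif4a1. Genes of unrelated tissues had 2 of 17, Ckm (16 and 14) and Syp (11 and 9). ChIP signal does not measure expression, so these counts are no check of the tissue's makeup.

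**Figure D5:**
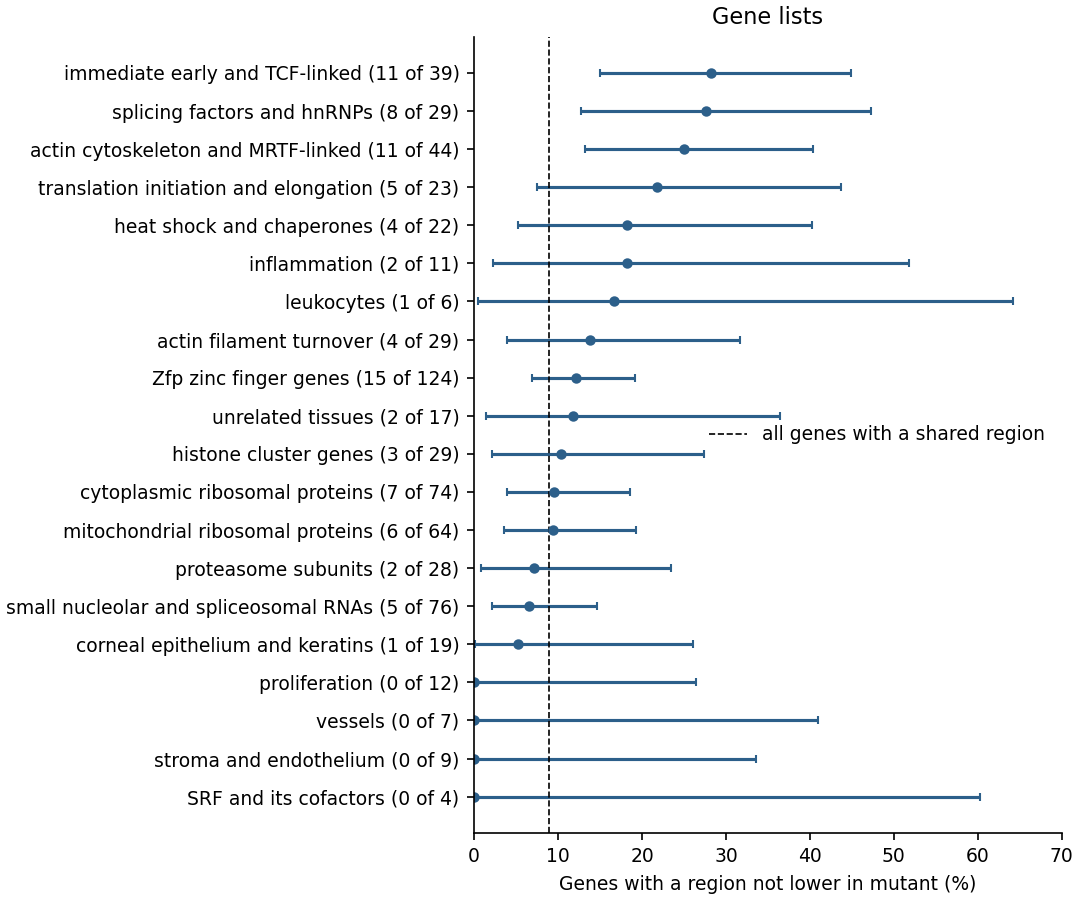
Percent of genes with a region not lower in mutant (horizontal axis) among the genes of each list with a shared region (vertical axis, counts in brackets), with exact binomial 95% intervals. The dashed line is the 8.88% of all genes, and the intervals of 3 lists lie above it, immediate early, splicing factors and actin cytoskeleton, whereas with regions within 1 kb of the start alone all 3 held the 10.6% of all genes.

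Of the 12 highest members, 2 were at the immediate early genes Fos and Fosb. The highest was assigned, among others, to Cd68 and Eif4a1 of the leukocyte and translation lists. The rest were at genes outside the lists or at none. The highest, on chromosome 11 (69661623 to 69662980), reached 88 in both libraries over the start of Mpdu1, a gene of dolichol-linked sugar use. Next came the start shared by Bcl2l12 and Irf3, an interferon response factor gene, on chromosome 7 (44997031 to 44998257), with 87 and 83, where the Bcl2l12 stretch held a CArG box. A region on chromosome 11 with a CpG island and no assigned gene (119052605 to 119055066) had 71 and 68. Elmsan1 had 57 and 52, Gsg1 55 and 41 and 1600014C10Rik 53 and 41, both inside the gene. Promoters reached 46 to 47 in both libraries at Rer1 with Morn1 and at Ptges3l with Rundc1. A region assigned to Alg12 and Creld2, 8944 bp from the nearer start, had 46 in both. Pitpna, a phosphatidylinositol transfer protein gene, had 45 and 38 at its start. Of the 12 highest members, 3 held a perfect CArG box in their stretch, at Bcl2l12, Elmsan1 and Pitpna.

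The largest ratios among members with a gene and a mutant height of at least 20 were taken next, and 7 of the 10 were at promoters with a CpG island. Over all members this held for 394 of 720 (54.7%), so 7 of 10 is no trait of the largest ratios. Ip6k1, an inositol phosphate kinase gene, had 37 in mutant against 13 in wildtype, and the log2 ratio was 1.44. Srbd1 had 31 and 13, Mblac1 26 and 11, Prkar1a, a regulatory subunit gene of protein kinase A, 30 and 13, and Creb3l2 27 and 12. Zbtb5 had 33 and 15 and Myg1 31 and 16. Away from promoters, Cotl1, which encodes the actin-binding coactosin-like protein, had 27 and 12 at 27494 bp inside the gene. Actn4 and Actg1, described above, complete the 10.

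Txnip and Arrdc4, paralogous arrestin-domain genes that respond to glucose, both had a member at their promoter. They are set side by side here after their values were seen. Txnip had 29 in mutant and 18 in wildtype at -92 bp, and its 2 shared regions further upstream had 20 and 37 and 15 and 25. Arrdc4 had 26 and 20, with the CArG box shown above.

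Positions and widths of the called intervals were compared where each library had 1 interval in a region, which held for 711 members and 14652 others. The highest points of both libraries lay within 100 bp of each other in 78.8% of members (75.6 to 81.7) and 95.2% of the others (94.8 to 95.5). In members of a mean height under 15 the share was 58.3% (50.6 to 65.7), against 71.9% of the others (67.0 to 76.5). From 25 to under 30 it was 92.6% (83.7 to 97.6) against 96.9% (96.1 to 97.6), and at 40 or more 12 of 12. The mutant interval was longer than the wildtype one in 61.9% of members (58.2 to 65.5) and in 34.5% of the others (33.8 to 35.3). Over all 711 members the median of mutant minus wildtype length was 43 bp (32 to 54), and over the others -53 bp (-55 to -50). Interval length comes from the same signal as the height and is not independent of the rule.

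Members were spread over the chromosomes. Among the autosomes and chromosome X, the share of shared regions that were members ran from 2.95% on chromosome 14 (1.73 to 4.68) to 6.15% on chromosome 7 (4.86 to 7.66), and was 8 of 153 on chromosome X (5.23%, 2.28 to 10). On chromosome Y 0 of 7 shared regions were members, with an upper limit of 41.0%. All of these intervals except that of chromosome 7 held the overall 4.62%. Of neighbouring regions, 22 pairs were both members, and 5 of these pairs, such as that at Actg1, were within 5000 bp.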

How the data were processed

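SRF ChIP-seq heights were compared between 1 mutant and 1 wildtype library, per the labels. BWA and the mm10 build are named in the submitters' processing notes. Caller, threshold and scaling were not given in the sources used here. Per region, the authors deposited signal values per region, the peak value, called height here, and the average value, per the file headers. Starts, CpG islands and gene assignments are the authors', and the base of the start coordinate is as deposited. Read depth is unknown.

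Log2 ratios used a pseudocount of 1. Members and gene lists were chosen with earlier results of these data known. Named genes were Dstn and Srf, the 12 highest members, the 10 highest ratios, up to 5 genes a list (all members of the immediate early, actin and cofactor lists), 5 equal promoters and 5 regions lower by 1. The values of 1 immediate early gene are not reported here. The genes in the plot of regions along genes, Txnip, Arrdc4, Egr2, Vcl and the CArG genes outside that rule were chosen after their values were seen. Shares carry exact binomial and medians order-statistic 95% intervals. Scripts were tested on simulated data. Versions were Python 3.11.15, numpy 2.4.6, pandas 2.3.3, scipy 1.17.1 and matplotlib 3.10.9.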

Additional observations from a re-analysis of the deposited data

How the results depend on the processing

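No paired analysis was possible because with 1 library a genotype no numbers pair. CArG boxes could not be sought in whole regions, since the sequences used here hold promoters only. The count depends on the scaling of the libraries: with both set to the same median height over shared regions, 8755 regions (56.2%) were not lower in the mutant. The count was 541 (3.47%) without ties and 824 (5.29%) by average value, and at heights of at least 20 and of at least the median of 42 it was 322 (2.24%) and 17 (0.211%). Of the 720 members, 398 were under 20. Members within 5 kb of a start were 66.7%. At a height of at least 20, 52.2% were within 1 kb and 54.7% at a CpG island, and by average value 53.3% and 55.1%. The median log2 ratio was 0.095 with a pseudocount of 5 and 0.061 by average value. With starts within 1 kb the immediate early and actin lists had 5 of 22 and 3 of 15 genes, beside 10.6% over all genes. With regions of 1 gene they had 6 of 19 and 5 of 22, beside 6.29%. Fewer regions entered in both settings. The CArG share was 11.9% with 1 inner mismatch. In alternatives chosen after seeing the data it was 7.33% at a height of at least 20 (others 0.896%), 3.77% by average value (others 0.959%) and 4.25% with 50 bases past the start (others 1.09%). For a member a height of at least 20 is a mutant height, so shares at this cut are not independent of the rule. Cnn2 (29 and 18), for one, passed by mutant height alone. The count was 691 with 50% reciprocal overlap, 711 with 1 interval of each library and 712 on autosomes. Of the 18 other lists, 9 moved by over 1.5 times with starts within 1 kb, 13 with regions of 1 gene, 12 at heights of at least 20 and 7 by average value, the last also chosen after seeing the data. Without depth, no counting error can be put on a height.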

Other observations

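Over all 3292 shared regions with an upstream stretch, the 42 with a CArG box had a median log2 ratio of mutant to wildtype of -0.23 (95% interval -0.57 to -0.054), and the 3250 without had -0.78 (-0.80 to -0.75). The 42 include 14 regions not lower in the mutant, which raise this median. The other 28, all lower in the mutant by the rule, had a median of -0.61 (-0.95 to -0.26). The 3250 still hold 339 members, so the 28 cannot be set against them. At a mean height of 30 or more the median was -0.57 over 23 regions with a box (-0.95 to -0.13). Without a box it was -1.18 over 1510 (-1.20 to -1.15), and the median heights were 50 and 47.5. Members were 5 of these 23 regions and 26 of these 1510. The rule uses the same heights, so these medians in part restate the members' CArG share and are no second result. Regions with a box ranged from -1.52 to 0.66. Those lower in the mutant include Dusp5, a MAP kinase phosphatase gene with 2 boxes (88 in mutant and 121 in wildtype), Ppif (41 and 114), Hook2 (46 and 90), and Srf itself with 2 boxes (36 and 41). This comparison was made after the members' shares had been seen, and 1 library a genotype gives no replicate check.

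Of the 25 member stretches without a CpG island, 5 held a CArG box (20%, exact binomial 95% interval 6.83 to 40.7), against 3 of 386 in regions lower in the mutant (0.777%, 0.161 to 2.25). At CpG islands the counts were 9 of 328 (2.74%, 1.26 to 5.14) and 25 of 2553 (0.979%, 0.635 to 1.44), with overlapping intervals.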
